A study of Mus musculus with 2 samples.

Results

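Type I interferon-stimulated genes were followed across the leukocytes of the atherosclerotic mouse aorta. A list of 41 such genes was looked up by symbol in a table of 31053 genes by 20 cell clusters, and 40 had a row. Mx2 is not analysed here. In myeloid clusters 22 of the 40 (55%) were more than 2-fold higher than in lymphoid clusters, against 15.2% of all genes with at least 20 counts. Without the myeloid cluster 18 the number was 20. Gbp7 alone was more than 2-fold lower (2.5%, against 20.2%), and its call lay at the line. The largest ratios belonged to the IFITM genes and Ifi204.

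Type I interferons are secreted proteins that warn cells of viruses and of nucleic acid in the wrong compartment. They bind the receptor of Ifnar1 and Ifnar2, whose kinases Jak1 and Tyk2 activate Stat2. With Irf9 it forms part of a complex that binds the interferon-stimulated response element (ISRE) in the promoters of its targets. In plaques, interferon-induced genes are known from macrophages, neutrophils and plasmacytoid dendritic cells.

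All cells came from Apoe-/- mice, which lack apolipoprotein E and develop plaques, kept on a western diet for 4 weeks. One group of mice received saline and the other nt-LNA at 30 mg/kg, each once a week for 4 weeks. LNA commonly stands for locked nucleic acid, a modified nucleotide of antisense drugs. Live cells with the leukocyte protein CD45 and without the T cell protein CD3 were sorted from the arch and thoracic aorta, and their RNA was read from the 3' end in droplets. The sources used here do not give the age, sex or number of the mice.

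There was 1 library per treatment, with 2742 cells after saline and 4871 after nt-LNA, and 2 barcodes occurred in both. The deposited counts of unique molecular identifiers (UMIs) pool both libraries within each cluster, so the genes were not compared between treatments. Cluster totals ran from 212515 to 12985745 UMIs, and the means per cell ran from 1278 to 24869 UMIs. Levels are given as counts per 1000000 UMIs of the cluster (CPM), with 95% intervals that cover counting error only. A lower CPM can mean fewer cells with the transcript or less of it per cell, which summed counts cannot tell apart.

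The 8 myeloid clusters were those deposited as Macrophages (0, 7, 8, 10, 15, 17, 18 and 19), and the 11 lymphoid clusters those deposited as B cells (1, 2, 4 and 12), NK cells (3) or T cells (5, 9, 11, 13, 14 and 16). The summed CPM of 10 myeloid markers ran from 4151 to 36384 in the former and from 308 to 983 in the latter. Cluster 6, also deposited as Macrophages, was left out of both classes, since it had 2245 CPM of T cell markers, 2407 CPM of cell cycle markers and 1527 CPM of myeloid markers. The name Macrophages covered other cells. Cluster 7 was neutrophil-like, with Ngp, Camp, S100a8 and S100a9 among its 10 leading genes and 98238 CPM of 5 neutrophil markers. Cluster 18 was plasmacytoid dendritic-like, with 11685 CPM of 5 markers. One of these is Bst2, itself an interferon-stimulated gene, while the markers Siglech (2200 CPM), Tcf4 (1251) and Ccr9 (1004) are not on the list. Siglech and Tcf4 were highest in cluster 18, but Ccr9 was higher in clusters 5 (1764 CPM) and 9 (1092 CPM). Despite the gate against CD3, Cd3e stood at 1331 CPM in cluster 5. Clusters 11 and 16, deposited as T cells, had 458 and 908 CPM of T cell markers beside 1782 and 3722 CPM of NK and innate lymphoid markers. Cluster 12, deposited as B cells, had 2166 CPM of T cell markers beside 4361 CPM of B cell markers. Below, B cell and T cell clusters are those so deposited, with clusters 11, 12 and 16 included, so their ratios are not those of pure cell types.

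Promoter sequence is shown first because the ISRE is the element through which the interferon-activated complex acts. RefSeq promoters of mouse build GRCm38.p6, 250 bases before to 50 after the gene start, were found for 32 of the 40 genes. They were searched on both strands for the ISRE core, GAAA followed by any 2 bases and another GAAA, and matches may overlap one another. At least 1 match was present for 17 of the 32 genes (53.1%), against 3.99% of all 27025 genes with a promoter. By promoter the shares were 47.5% of 40 and 3.44% of 32851. The genes were chosen as interferon-stimulated, so the excess describes the list. Of the 17 genes, 7 had at least 2 matches. Windows around the matches follow for some of the genes, and most of those shown hold more than 1 match. They are read on the strand of the gene, with the matched bases in capitals. Isg15 lies at chr4:156200860-156200911 on the minus strand and holds 3 overlapping matches.
Isg15: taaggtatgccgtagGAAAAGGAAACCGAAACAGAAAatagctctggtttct
Ifit1 (chr19:34640770-34640828, plus strand) and Ifit3 (chr19:34583358-34583431, plus strand) each hold 2 matches on the opposite strand, where GAAA reads as TTTC.
Ifit1: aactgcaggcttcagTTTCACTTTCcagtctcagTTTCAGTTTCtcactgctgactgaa
Ifit3: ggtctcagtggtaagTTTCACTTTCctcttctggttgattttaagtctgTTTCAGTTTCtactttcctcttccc
Oas1a (chr5:120907526-120907560, minus strand) and Bst2 (chr8:71537572-71537617, minus strand) each hold 2 overlapping matches.
Oas1a: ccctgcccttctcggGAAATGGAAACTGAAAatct
Bst2: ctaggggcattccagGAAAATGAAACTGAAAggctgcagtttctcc
Ifitm2 (chr7:140955983-140956022, minus strand) is among the genes with the largest myeloid ratio.
Ifitm2: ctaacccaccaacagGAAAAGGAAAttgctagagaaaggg
Gbp7 (chr3:142530268-142530307, plus strand) is the gene that was lower in myeloid clusters, and Irgm1 (chr11:48871421-48871465, minus strand) was on neither side.
Gbp7: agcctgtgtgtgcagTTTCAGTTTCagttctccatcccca
Irgm1: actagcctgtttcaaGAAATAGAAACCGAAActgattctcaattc

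The core was present on both sides of the expression contrast. It was matched in 11 of 17 genes with a promoter that were more than 2-fold higher in myeloid clusters (64.7%) and in 6 of the 15 others (40%), a difference that was not tested. Ifitm3 had 2 matches, but both started after its annotated gene start. Ifitm1, Irf7 and Slfn1 had no match in these windows, and Ifi204 and Mx1 were among the 8 genes without an entry. A second motif, the gamma-activated sequence (TTC, any 3 bases, GAA, on both strands), was matched in 8 of the 32 genes (25%) and in 9.55% of all genes. In Bst2 and in Ifitm3, 1 ISRE match overlapped a gamma-activated sequence. A match describes letters in the window and not a bound site.

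Myeloid and lymphoid clusters were then compared by the ratio of their mean CPM, each cluster counting equally. The clusters were made from the same counts and there are no replicates, so ratios are described and no test was made. Of the 40 genes, 22 (55%) were more than 2-fold higher in myeloid clusters, against 15.2% of the 14000 genes with at least 20 counts. One gene (2.5%) was more than 2-fold lower, against 20.2%. The median log2 ratio was 1.46 for the list and -0.26 for all genes. Of the 40 log2 ratios 35 lay above 0, against 5395 of the 14000 genes. More than 4-fold higher were 13 of the 40, against 9.16%. Just inside the 2-fold line was Trim30a at 2.08-fold, and just outside were Usp18 at 1.95-fold and Slfn2 at 1.90-fold. The median log2 ratio was 0.98 without cluster 18 and 2.51 when UMIs per cell replaced CPM, a scale on which the median of all genes was 1.17.

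**Figure D1:**
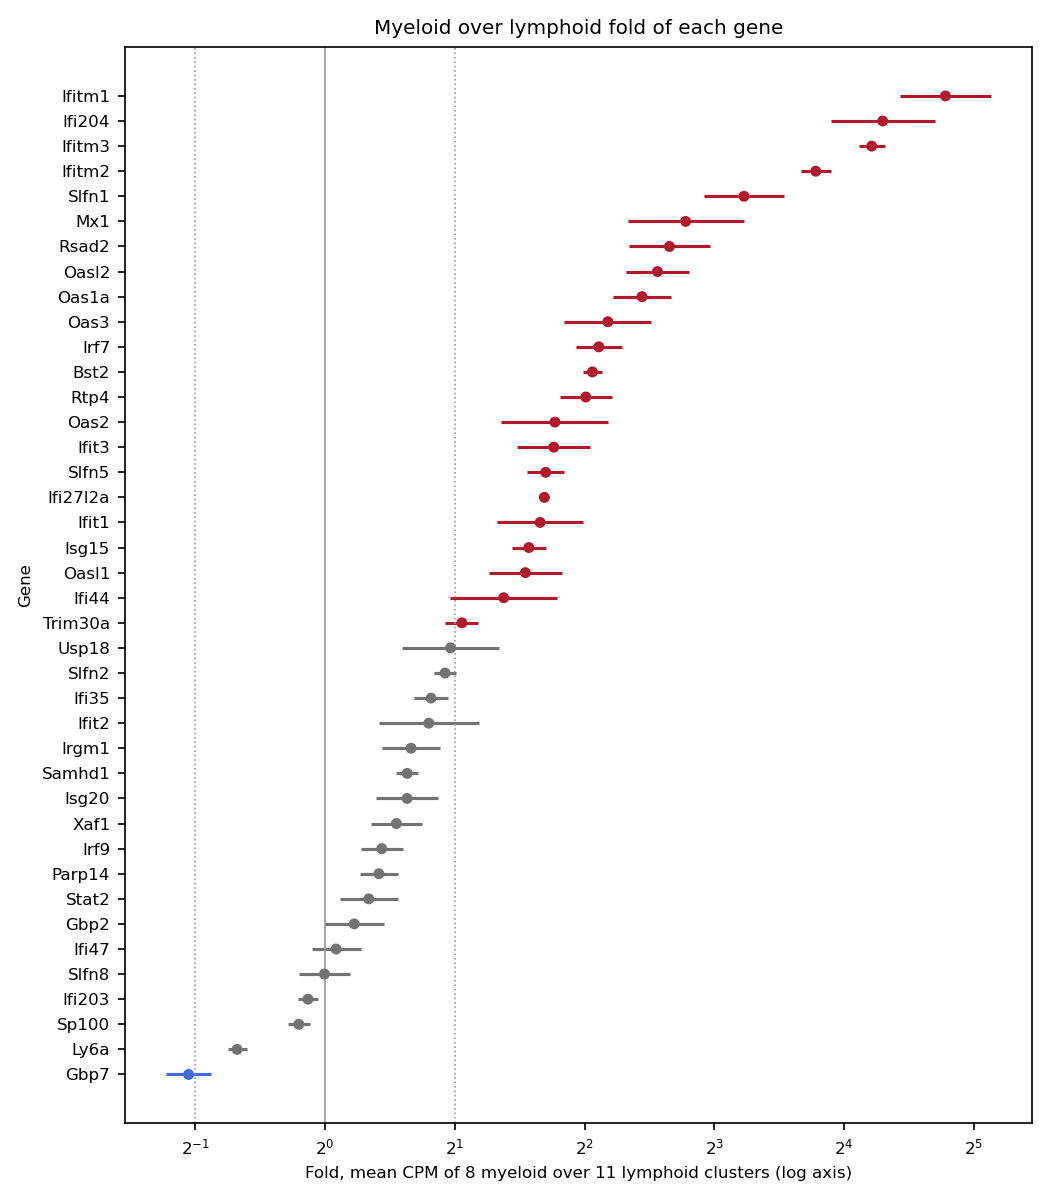
Ratio of mean CPM in 8 myeloid clusters over 11 lymphoid clusters for each of the 40 genes (log axis), with bars for the 95% counting interval and dotted lines at 2-fold either way; red is more than 2-fold higher, blue more than 2-fold lower and grey neither. Ifitm1 is at the top with 27.5-fold and Gbp7 is the only blue point.

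In 3 genes, Irf7, Ifitm3 and Ifi204, every myeloid cluster stood above every lymphoid cluster, against 1.11% of all genes. None had every lymphoid cluster above every myeloid one, against 0.171%. For each the counting intervals of the nearest clusters overlapped. The lowest myeloid value of Ifitm3 was 184 CPM in cluster 18 (149.9 to 224) and its highest lymphoid value 182 CPM in cluster 5 (154 to 215). For Ifi204 these were 12.9 CPM in cluster 18 (5.18 to 26.6, 7 UMIs) and 11.4 CPM in cluster 5 (5.21 to 21.6, 9 UMIs). Irf7 had 59.3 CPM in cluster 0 (55.2 to 63.6) and 50.6 CPM in cluster 3 (43.6 to 58.5). Without cluster 18 the number of such genes was 6, against 2% of all genes.

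**Figure D2:**
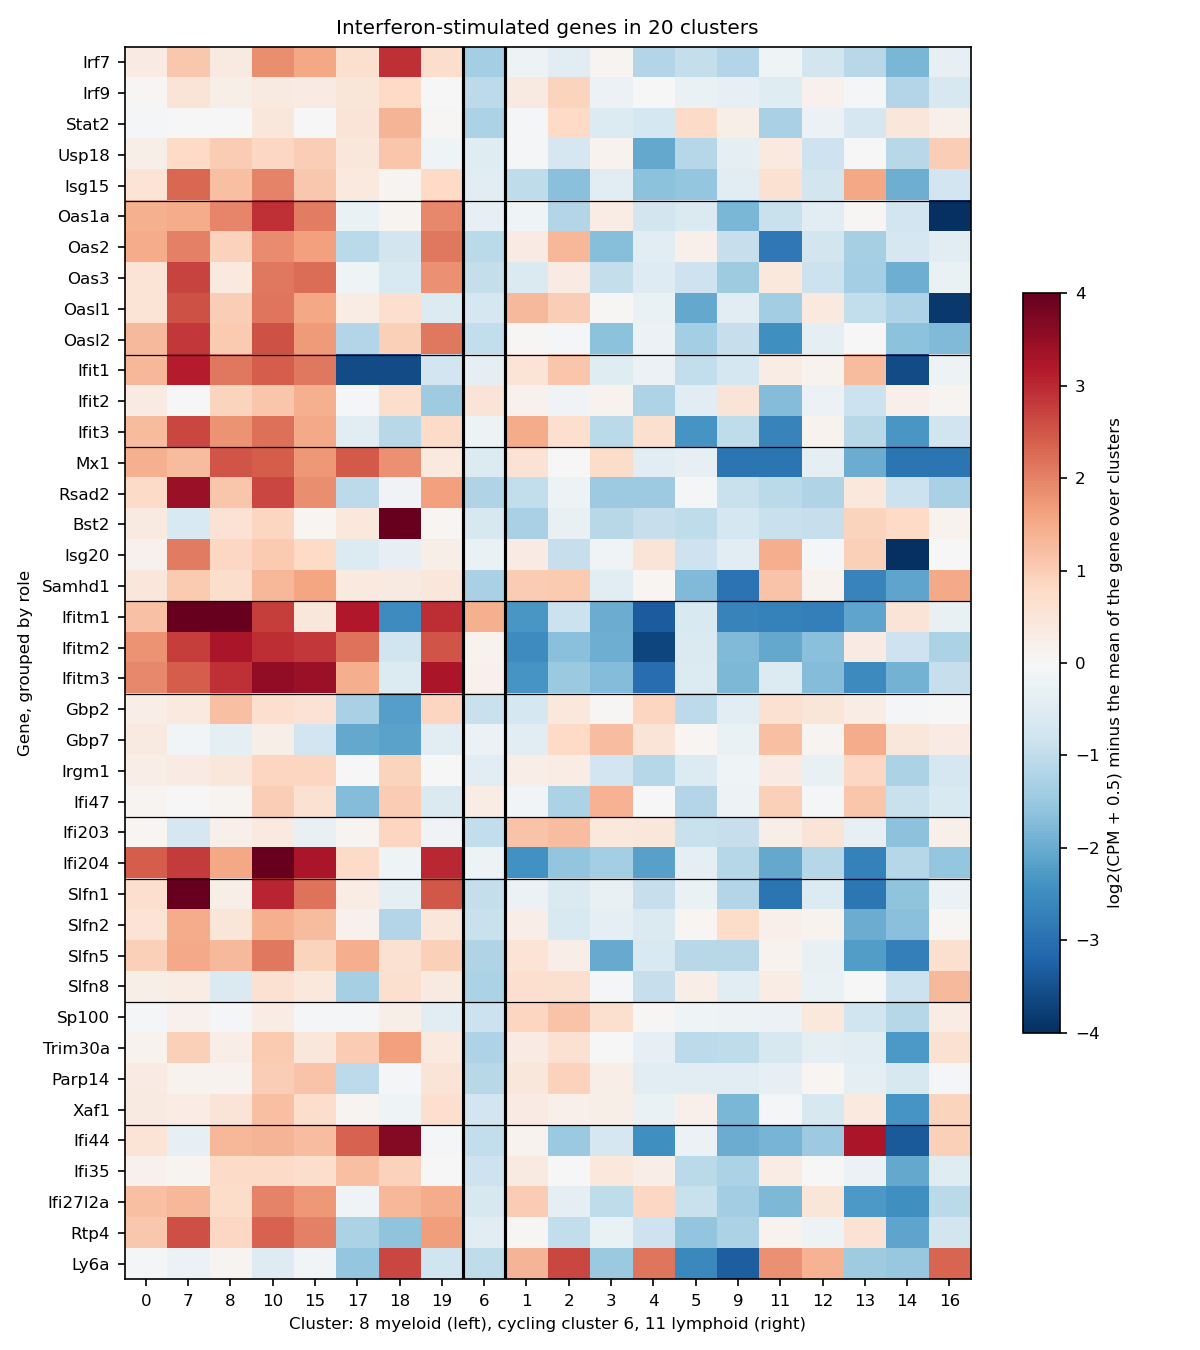
Level of each of the 40 genes in each of the 20 clusters, with genes grouped by role and clusters by class, on the scale given by the colour bar. The IFITM genes and Ifi204 are high in most myeloid clusters but not in cluster 18, and Gbp7 is higher in several lymphoid clusters.

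The IFITM proteins sit in membranes and block the fusion of virus with the cell. All 3 were more than 2-fold higher in myeloid clusters, with a median log2 ratio of 4.21. Ifitm1 in the myeloid clusters stood at 52.8 CPM in cluster 0, 448 in cluster 7, 1017 in cluster 8, 159.9 in cluster 10, 32.0 in cluster 15, 219.7 in cluster 17, 3.68 in cluster 18 and 183 in cluster 19. In B cell clusters it stood at 4.23 CPM in cluster 1, 12.4 in cluster 2, 1.86 in cluster 4 and 3.03 in cluster 12, and in the NK cell cluster 3 at 5.45. In the clusters deposited as T cells it stood at 15.2 CPM in cluster 5, 3.21 in cluster 9, 3.17 in cluster 11, 5.05 in cluster 13, 33.4 in cluster 14 and 18.8 in cluster 16. Cluster 8, with Fscn1 and Cxcl9 among its leading genes, was far above the rest, and cluster 18 was as low as the lymphoid clusters. The ratio of the class means was 27.5-fold (21.6 to 35.0), and without cluster 8 its log2 was 4.03 in place of 4.78.

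Ifitm2 in the myeloid clusters stood at 507 CPM in cluster 0, 996 in cluster 7, 1429 in cluster 8, 1133 in cluster 10, 1053 in cluster 15, 659 in cluster 17, 84.7 in cluster 18 and 852 in cluster 19. In B cell clusters it stood at 25.6 CPM in cluster 1, 45.8 in cluster 2, 11.2 in cluster 4 and 45.8 in cluster 12, and in cluster 3 at 37.8. In the clusters deposited as T cells it stood at 97.5 CPM in cluster 5, 42.5 in cluster 9, 35.4 in cluster 11, 186 in cluster 13, 82.15 in cluster 14 and 61.2 in cluster 16. Only cluster 18 lay in the lymphoid range, below clusters 5 and 13. The ratio was 13.8-fold (12.7 to 14.9).

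Ifitm3 in the myeloid clusters stood at 1013 CPM in cluster 0, 1426 in cluster 7, 2009 in cluster 8, 3132 in cluster 10, 2929 in cluster 15, 726 in cluster 17, 184 in cluster 18 and 2554 in cluster 19. In B cell clusters it stood at 51.9 CPM in cluster 1, 95.6 in cluster 2, 31.8 in cluster 4 and 79.1 in cluster 12, and in cluster 3 at 79.5. In the clusters deposited as T cells it stood at 182 CPM in cluster 5, 76.1 in cluster 9, 182 in cluster 11, 44.99 in cluster 13, 71.9 in cluster 14 and 141 in cluster 16. Cluster 10, with Spp1, Vcan, Gpnmb and Ccl2 among its leading genes, and cluster 15, led by Cd300e and Ace, were highest. The ratio was 18.5-fold (17.3 to 19.9).

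As shares of the myeloid mean, the lymphoid means of the IFITM genes and Ifi204 were of the size seen for myeloid markers. The lymphoid mean was 3.64% of the myeloid mean for Ifitm1, 7.27% for Ifitm2, 5.39% for Ifitm3 and 5.09% for Ifi204. For the 10 myeloid markers this share had a median of 4.78% and ran from 2.08% for Cd14 to 13.9% for Itgam. Slfn1, at 10.7%, lay in the upper part of that range, and Mx1, at 14.6%, above it. The share was 2.15% for Lyz2, a lysozyme gene of macrophages and neutrophils. Itgam had 181 CPM in the NK cell cluster 3 and at most 48.5 CPM in the other lymphoid clusters. Single clusters did not follow the means: cluster 13 had the lowest lymphoid sum of myeloid markers (308 CPM) but the highest lymphoid Ifitm2 (186 CPM). The part of free RNA or doublets in these lymphoid levels was not tested.

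**Figure D3:**
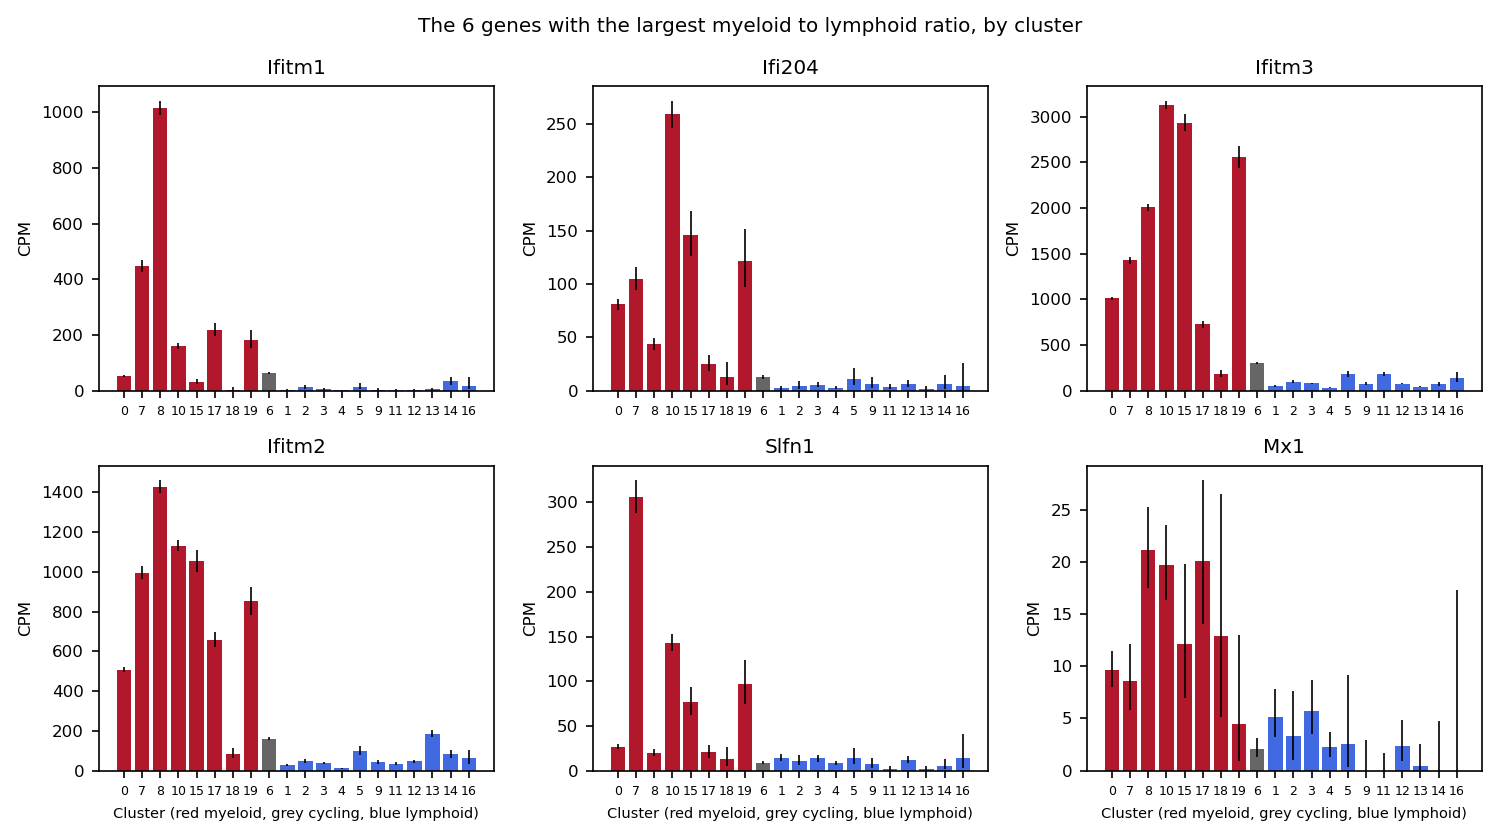
CPM in each cluster for the 6 genes with the largest ratios between classes (Ifitm1, Ifi204, Ifitm3, Ifitm2, Slfn1 and Mx1). Most myeloid values lie above the lymphoid ones, with cluster 18 at or near the lowest myeloid value except for Mx1.

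The PYHIN proteins bind DNA and include sensors of DNA in the cytosol. Ifi204 was 19.7-fold higher (14.9 to 25.95) in myeloid clusters. It stood at 80.9 CPM in cluster 0, 104.5 in cluster 7, 43.8 in cluster 8, 259 in cluster 10, 146 in cluster 15, 25.2 in cluster 17, 12.9 in cluster 18 and 122 in cluster 19. In B cell clusters it stood at 2.35 CPM in cluster 1, 4.58 in cluster 2, 2.87 in cluster 4 and 6.40 in cluster 12, and in cluster 3 at 5.45. In the clusters deposited as T cells it stood at 11.4 CPM in cluster 5, 6.41 in cluster 9, 3.17 in cluster 11, 1.84 in cluster 13, 6.42 in cluster 14 and 4.71 in cluster 16. Cluster 10 was highest and every lymphoid cluster was low. Ifi203, of the same family, behaved otherwise: its ratio was 0.91 (0.86 to 0.97), with 115 to 333 CPM (median 198) in myeloid and 59.0 to 432 CPM (median 215) in lymphoid clusters. Its highest level was in the B cell cluster 2. PYHIN genes lie side by side and resemble each other, as do the IFITM, IFIT, OAS, Schlafen, TRIM30 and GTPase genes. The sources used here do not give how reads shared between such copies were counted, so their levels are uncertain.

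The Schlafen genes, regulators of growth and RNA in immune cells, were split. Slfn1 was 9.375-fold higher (7.58 to 11.6) in myeloid clusters. It stood at 26.9 CPM in cluster 0, 306 in cluster 7, 19.7 in cluster 8, 143 in cluster 10, 77.0 in cluster 15, 20.7 in cluster 17, 12.9 in cluster 18 and 96.8 in cluster 19. In B cell clusters it stood at 14.3 CPM in cluster 1, 11.1 in cluster 2, 8.60 in cluster 4 and 11.4 in cluster 12, and in cluster 3 at 13.6. In the clusters deposited as T cells it stood at 13.9 CPM in cluster 5, 7.21 in cluster 9, 1.81 in cluster 11, 1.84 in cluster 13, 5.13 in cluster 14 and 14.1 in cluster 16. The neutrophil-like cluster 7 was highest, and without it the log2 ratio was 2.60 in place of 3.23. Cluster 18 alone overlapped the lymphoid clusters. Slfn5 was 3.25-fold higher (2.94 to 3.59), with 109 to 308 CPM (median 158) in myeloid and 10.3 to 113 CPM (median 46.4) in lymphoid clusters. Slfn2, whose product keeps T cells and monocytes quiescent, had a ratio of 1.90 and ran from 71.8 to 458.5 CPM in myeloid and from 40.9 to 275 CPM in lymphoid clusters. Slfn8 had a ratio of 0.997 (0.871 to 1.14). The highest level of each class was 98.8 CPM in cluster 16 and 62.6 CPM in cluster 18.

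Mx1, a dynamin-like GTPase that traps viral nucleoproteins, was 6.86-fold higher (5.03 to 9.36) in myeloid clusters. It had 555 UMIs over all clusters, cluster 6 included. It stood at 9.63 CPM in cluster 0, 8.57 in cluster 7, 21.2 in cluster 8, 19.7 in cluster 10, 12.2 in cluster 15, 20.1 in cluster 17, 12.9 in cluster 18 and 4.47 in cluster 19. In B cell clusters it stood at 5.16 CPM in cluster 1, 3.27 in cluster 2, 2.29 in cluster 4 and 2.36 in cluster 12, and in cluster 3 at 5.72. Of the clusters deposited as T cells, cluster 5 had 2.53 CPM and cluster 13 had 0.459, while clusters 9, 11, 14 and 16 had no UMI, with 95% intervals that reach 2.96, 1.67, 4.74 and 17.4 CPM. Only cluster 19, with 27 cells and 3 Mx1 UMIs, lay in the lymphoid range.

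The other direct effectors included 2 more genes over the line. Rsad2 encodes viperin, an enzyme that makes a chain-terminating nucleotide. It was 6.30-fold higher (5.065 to 7.83), with 5.59 to 139 CPM (median 32.7) in myeloid and 4.08 to 16.5 CPM (median 5.87) in lymphoid clusters. Its top levels were 139 CPM in cluster 7 and 81.1 CPM in cluster 10. Bst2 encodes tetherin, which holds budding virus at the cell surface, and it was 4.17-fold higher (3.965 to 4.39). That call rested on 1 cluster: Bst2 reached 5011 CPM in cluster 18, for which it is also a marker, and 174.5 to 479 CPM in the other 7 myeloid clusters. In lymphoid clusters Bst2 ran from 107 to 496 CPM (median 142). Without cluster 18 its log2 ratio was 0.58 in place of 2.06, below the 2-fold line. The exonuclease gene Isg20 had a ratio of 1.55 (1.31 to 1.83), with 60.3 CPM in cluster 7 and 39.0 CPM in cluster 11 as the highest of each class. Samhd1, which degrades deoxynucleotides, had a ratio of 1.55 (1.46 to 1.64), with 215.5 to 502 CPM in myeloid and 21.6 to 485 CPM in lymphoid clusters.

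The OAS proteins sense double-stranded RNA, and their active members make the oligoadenylate that switches on RNase L. All 5 were more than 2-fold higher in myeloid clusters, with a median log2 ratio of 2.18. Oasl2 was 5.905-fold higher (4.99 to 6.985), with 7.27 to 124 CPM (median 49.9) against 2.72 to 17.6 CPM (median 8.81). Oas1a was 5.44-fold higher (4.66 to 6.34), with 12.9 to 119.9 CPM (median 52.05) against 0 to 19.1 CPM (median 9.17). Oas3 was 4.53-fold higher (3.59 to 5.72), Oas2 3.41-fold (2.57 to 4.54) and Oasl1 2.915-fold (2.395 to 3.55). Class ranges overlapped for each, and the lowest myeloid cluster was 17, 18 or 19. Over B cell clusters alone Oasl1 was 1.55-fold higher, below the 2-fold line, and over T cell clusters alone 7.55-fold. Oas3, Oasl1 and Oasl2 peaked in cluster 7, Oas1a in cluster 10 and Oas2 in cluster 19.

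The IFIT proteins bind viral RNA that lacks the host cap. Ifit3 was 3.39-fold higher (2.79 to 4.12) and Ifit1 3.155-fold higher (2.51 to 3.97) in myeloid clusters. Over B cell clusters alone Ifit3 was 1.63-fold higher, below the 2-fold line, and over T cell clusters alone 9.46-fold. Ifit1 had no UMI in clusters 17 and 18, where 95% intervals reach 2.06 and 6.80 CPM, and it had 52.3 CPM in cluster 7. Ifit3 ran from 3.68 CPM in cluster 18 to 56.7 CPM in cluster 7, and its highest lymphoid level was 24.6 CPM in the B cell cluster 1. Ifit2 had a ratio of 1.74 (1.33 to 2.28), with 24.4 CPM in cluster 15 as its highest level.

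Among the signalling and feedback genes, Irf7, the factor that amplifies interferon production, was 4.32-fold higher (3.82 to 4.875). It ran from 59.3 to 363 CPM (median 88.8) in myeloid and from 12.8 to 50.6 CPM (median 27.9) in lymphoid clusters. Its highest levels were 363 CPM in cluster 18 and 173 CPM in cluster 10. Isg15 encodes a ubiquitin-like protein that is attached to others, and it was 2.97-fold higher (2.72 to 3.25). It ran from 60.8 to 278 CPM (median 108) in myeloid and from 14.1 to 162.5 CPM (median 32.9) in lymphoid clusters. The high lymphoid value belonged to cluster 13, which exceeded 6 of the 8 myeloid clusters. Genes of the ISRE-binding complex lay closer together, with Irf9 at a ratio of 1.35 (1.21 to 1.51) and Stat2 at 1.26 (1.08 to 1.475). Usp18, which removes ISG15 and restrains the receptor, had a ratio of 1.95 (1.51 to 2.53), with an interval on both sides of the 2-fold line.

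The interferon-inducible GTPases, which attack the vacuoles of intracellular microbes, had no member over the 2-fold line in myeloid clusters, although 3 of the 4 ratios were above 1. Gbp7 was 2.07-fold lower (1.84 to 2.34). It ran from 7.37 CPM in cluster 18 to 43.7 CPM in cluster 0 (median 25.8) in myeloid clusters, and from 24.9 CPM in cluster 1 to 95.5 CPM in cluster 13 (median 46.2) in lymphoid clusters. The number of lymphoid clusters above every myeloid one was 6, and the NK cell cluster 3 (80.0 CPM) and cluster 11 (78.0 CPM) were also high. The call lies at the line: without cluster 3, 11, 13, 17 or 18 Gbp7 was less than 2-fold lower (log2 ratios of -0.98 to -0.91). Against B cell clusters alone Gbp7 was 1.67-fold lower, and against T cell clusters alone 2.15-fold lower. Gbp2 had a ratio of 1.17 (0.998 to 1.37), Irgm1 of 1.58 (1.35 to 1.85) and Ifi47 of 1.06 (0.93 to 1.21). Ifi47 was highest in cluster 3, with 76.5 CPM.

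Of the nuclear and ubiquitin-linked genes, Trim30a, whose product restrains Toll-like receptor signalling, was 2.08-fold higher (1.90 to 2.27). Without cluster 5, 9, 14 or 18 it lay under the 2-fold line (log2 ratios of 0.89 to 0.99), and with counts summed over clusters its log2 ratio was 0.77. It ran from 99.96 CPM in cluster 0 to 280.0 CPM in cluster 18 in myeloid clusters and from 17.97 to 137.5 CPM in lymphoid ones. The ADP-ribosyltransferase gene Parp14 had a ratio of 1.33, the apoptosis gene Xaf1 of 1.46 and the nuclear body gene Sp100 of 0.87. Sp100 peaked in the B cell cluster 2, with 365 CPM.

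Of the remaining genes, Rtp4 was 4.03-fold higher (3.50 to 4.63), Ifi27l2a 3.23-fold (3.15 to 3.30) and Ifi44 2.60-fold (1.95 to 3.455). Ifi44 was highest in cluster 18 (64.5 CPM), and its log2 ratio was 0.69 without it in place of 1.38, below the 2-fold line. Its highest lymphoid level was 49.1 CPM in cluster 13 (40.3 to 59.4), where the other 10 lymphoid clusters had at most 9.41 CPM, and without cluster 13 its log2 ratio was 2.77. Ifi27l2a ran from 701 to 3058 CPM in myeloid and from 143 to 1576 CPM in lymphoid clusters, with the highest lymphoid level in the B cell cluster 1. Over B cell clusters alone Ifi27l2a was 1.68-fold higher, below the 2-fold line, and over T cell clusters alone 7.26-fold. Ifi35 had a ratio of 1.76. Ly6a encodes Sca-1, a surface protein of stem cells and activated lymphocytes, and had a ratio of 0.63 (0.59 to 0.66). It reached 1462 CPM in the B cell cluster 2 and 1459 CPM in cluster 18. Without cluster 18 its log2 ratio moved from -0.68 to -1.61, so that it took the place of Gbp7 as the gene more than 2-fold lower. It did so too with counts summed over clusters (-1.46) and with class medians in place of means (-1.52). Against B cell clusters alone Ly6a was 2.71-fold lower and Gbp7 1.67-fold lower.

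Within each class the genes did not follow a single order. Each cluster was set against the mean of the other clusters of its class. For Bst2 and Ly6a this mean held the 5011 and 1459 CPM of cluster 18 in every other myeloid cluster. Bst2 was more than 2-fold lower in each of those clusters, and Ly6a in clusters 10, 17 and 19. The neutrophil-like cluster 7 had 10 of the 40 genes more than 2-fold higher, against 6% of 13013 genes, and 2 lower, against 12.3%. Higher were Slfn1 (5.40-fold), Rsad2 (4.23), Ifit1 (3.68), Isg20 (3.22), Oasl1 (2.94), Ifit3 (2.77), Oas3 (2.72), Isg15 (2.47), Rtp4 (2.46) and Oasl2 (2.46). Lower were Bst2 and Ifi44. Of its cells 41.2% came from the nt-LNA library.

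Cluster 10 had 4 genes higher, against 3.8%, and 2 lower, Bst2 and Ly6a, against 9.71%. Higher were Ifi204 (3.39-fold), Oas1a (2.77), Rtp4 (2.05) and Ifitm3 (2.02), and the median log2 ratio of all 40 genes there was 0.64, the highest of the 8 myeloid clusters. By upper quartile scaling cluster 10 had 9 genes higher, against 4.27% of all genes, and by median-of-ratios scaling 2, against 3.63%. Of its cells 41.6% came from the nt-LNA library, the second lowest share after cluster 7, and in the other myeloid clusters this ran from 50.4% to 81.5%. The part of treatment in the levels of any cluster cannot be told apart here.

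In the plasmacytoid dendritic-like cluster 18, with 59 cells, Bst2 (15.3-fold), Ly6a (8.27), Ifi44 (5.85), Irf7 (3.715) and Stat2 (2.31) were more than 2-fold higher. These 5 of 40 genes are a share near the 12.2% of all genes, while 17 of the 40 were more than 2-fold lower, against 13.5%. These included all 3 IFITM genes, with Ifitm1 at 0.0122 of the mean of the other myeloid clusters, and Ifi204, Slfn1, Rsad2, Ifit3, Isg15 and 3 OAS genes. Plasmacytoid dendritic cells are known for constant Irf7 and for secreting type I interferon.

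Cluster 17, with Xcr1 and Tlr3 among its leading genes, had no gene more than 2-fold higher, against 5.61%, and 21 lower, against 18.9%. Its median log2 ratio was -1.29, against -0.19 for all genes. Ifit1 had no UMI there, and the levels of Rsad2 and Oasl2 were each 0.108 of the mean of the other myeloid clusters. Yet Mx1 (20.1 CPM) and Ifi35 (137.5 CPM) were high there among the 8 myeloid clusters.

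In clusters 0 and 19 no gene was more than 2-fold higher, against 9.3% and 8.9%, and 7 were lower in each, against 5.02% and 8.7%. Cluster 0 also had 328 CPM of vessel wall markers, the most of any cluster, and Myh11 and Mcpt8 among its leading genes. Cluster 8 had Ifitm1 and Gbp2 higher, 2 genes against 4.41%, and 5 lower, against 12.9%. Cluster 15 had Ifit2 higher, 1 gene against 5.49%, and 2 lower, against 11.9%.

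**Figure D4:**
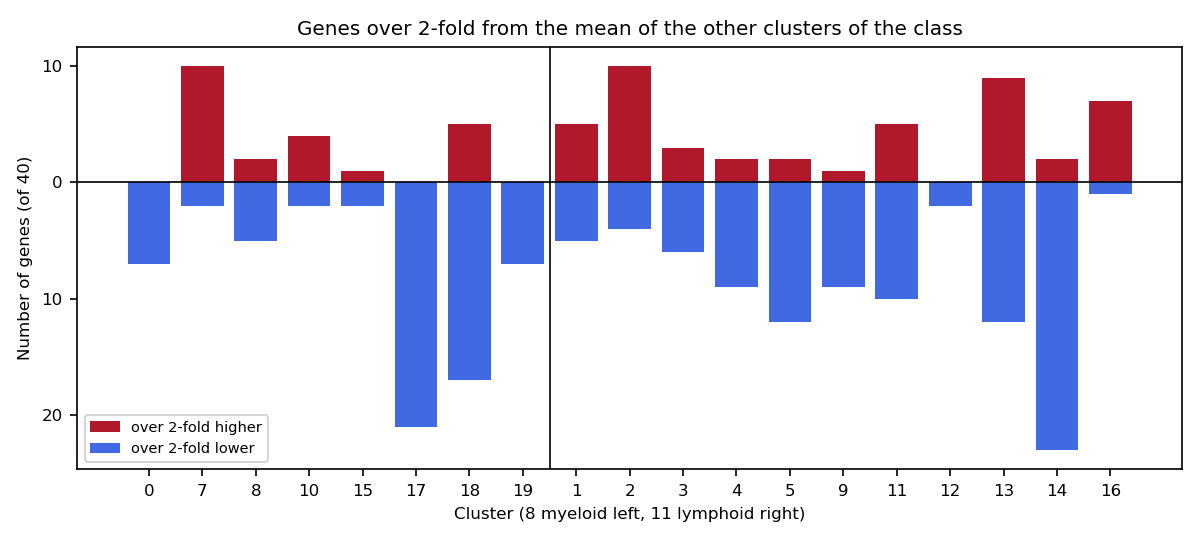
Number of the 40 genes more than 2-fold higher (red, up) or lower (blue, down) in each cluster than in the mean of the other clusters of its class, with 8 myeloid clusters on the left and 11 lymphoid clusters on the right. The tallest red bars are clusters 7 and 2 with 10 genes each, and the longest blue bars are clusters 14 with 23 and 17 with 21.

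Among lymphoid clusters, cluster 13, with H19, Myl10 and Tcrg-C2 among its leading genes, had 9 genes more than 2-fold higher, against 10.3% of 12305 genes, and 12 lower, against 19.5%. Ifi44 was 18.97-fold higher there, Isg15 4.92-fold, Ifitm2 3.84-fold, Ifit1 2.63-fold, Bst2 2.59-fold and Rsad2 2.58-fold, while Rtp4, Irgm1 and Ifi47 lay between 2.08-fold and 2.35-fold. Mx1, Slfn1, Slfn2, Slfn5, Samhd1 and Ly6a were among the lower ones, so the list was split there.

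The B cell cluster 2 had 10 genes higher, against 10.6%, and 4 lower, against 19.6%. Oas2 (4.23-fold), Ly6a (3.28) and Oasl1 (2.58) led. This cluster had 2296 UMIs per cell and 10.1% mitochondrial UMIs, and the number higher was 6 both by upper quartile scaling, against 10.2%, and by median-of-ratios scaling, against 9.57%. Cluster 14, with Mki67 leading and 11.2% mitochondrial UMIs, had 23 genes lower, against 13.9%, and 2 higher, against 19.3%. Xaf1, Slfn5, Samhd1, Ifit3 and Ly6a were each more than 5-fold lower there. Cluster 16, with Il13 leading and 1897 UMIs per cell, had 7 higher, against 16.5%, and 1 lower, against 14.1%. The B cell cluster 1 had 5 higher, against 3.54%, among them Ifit3, Oasl1 and Mx1, and 5 lower, against 30.2%. By upper quartile scaling cluster 1 had 11 higher, against 5.71%, and by median-of-ratios scaling 9, against 5.1%. In clusters 3, 4, 5, 9, 11 and 12, in that order, 3, 2, 2, 1, 5 and 0 genes were higher. The numbers lower there were 6, 9, 12, 9, 10 and 2. The background shares there were 6.75%, 4.13%, 17.3%, 10.8%, 6.29% and 1.85% higher and 25.8%, 40.4%, 12.3%, 17.1%, 26.6% and 12.5% lower.

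Likeness between genes was described by Spearman's rho of log2(CPM + 0.5) over the 20 clusters, which share the 2 libraries and differ in depth. Over 780 pairs the median rho was 0.40, with 19 pairs over 0.8 and 79 under 0. The closest pair was Ifitm3 and Ifi204 (0.91), followed by Slfn5 and Oas3 (0.87). Irf7 (0.88) and Slfn5 (0.87) were closest to the mean of the other genes. Gbp7 was alone in running against that mean (-0.41), and Stat2 (0.19), Ifi47 (0.20) and Ly6a (0.22) were nearly unrelated to it. Against UMIs per cell rho ran from -0.37 for Gbp7 to 0.62 for Oas1a, and the part of depth in these likenesses was not tested.

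The ligands, receptors and signalling genes upstream were followed in a separate list of 43. Transcripts of type I interferon itself were barely seen. Ifnb1 had 4 UMIs in all clusters and Ifna13 2 UMIs in cluster 6, and no other listed Ifna gene had any. Ifng, the type II interferon, was the only ligand with at least 20 counts. It had 344 CPM in the NK cell cluster 3 and at most 10.6 CPM in the other lymphoid clusters. It was 12.6-fold lower in myeloid clusters with cluster 3, and without that cluster its log2 ratio turned from -3.65 to 0.36. Ifnar1 had a ratio of 0.82, with 65.5 to 169 CPM in myeloid and 46.4 to 248 CPM in lymphoid clusters. Ifnar2, the other chain of the type I receptor, was 2.73-fold higher, with 115 to 380 CPM in myeloid and 34.5 to 150.2 CPM in lymphoid clusters.

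Of the 23 genes in that list with at least 20 counts, 7 were more than 2-fold higher in myeloid clusters (30.4%, against 15.2% of all genes) and 2 lower (8.7%, against 20.2%), and the median log2 ratio was 0.30. Ifnlr1, the type III receptor chain, was 10.0-fold higher, with 44 UMIs over all clusters and its highest level in cluster 7 (6.64 CPM). The largest ratios after it were Irf5 (4.26-fold), Socs3 (3.22), Ifnar2 and Irf8 (2.58). Irf5 and Irf8 are factors of myeloid and dendritic cells, and Socs3 restrains cytokine receptors. Irf8 had 2220 CPM in cluster 18, 1203 in cluster 17 and 140.5 to 184.5 in the other myeloid clusters. Its highest lymphoid levels were 1393 CPM in the NK cell cluster 3 and 315 CPM in the B cell cluster 1. The smallest ratios after Ifng were Socs1 (0.340), a restraint of Jak kinases, Ifngr1 (0.655), Jak1 (0.665) and Irf3 (0.694). Socs1 reached 335 CPM in cluster 9.

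A further 67 interferon-inducible genes outside the list gave 62 with at least 20 counts. Of these 17 (27.4%) were more than 2-fold higher in myeloid clusters and 4 (6.45%) lower, against 15.2% and 20.2% of all genes, and the median log2 ratio was 0.18, against -0.26. The largest ratios were those of Slfn4 (43.0-fold), Cxcl9 (42.0), Oas1g (18.2), Ifi211 (16.65) and Ifi207 (14.3). Slfn4 reached 223 CPM in cluster 7, and the chemokine gene Cxcl9 reached 83.02 CPM in cluster 8. The smallest were Ly6c1 (3.71-fold lower), Gbp4 (3.27-fold lower), Gbp8 (2.925-fold lower), Gbp6 (2.21-fold lower) and Igtp (1.93-fold lower). Gbp4, Gbp8, Gbp6 and Igtp are GTPases like Gbp7. The ratios of the GTPase genes Gbp9 (0.671), Gbp5 (0.854), Irgm2 (1.11), Gbp3 (1.18) and Iigp1 (1.37) lay nearer 1. Gbp8 and Gbp6 were highest in cluster 13, with 135 and 39.9 CPM, and Gbp4 and Igtp in cluster 5, with 130.4 and 118 CPM.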

How the data were processed

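Both libraries, 1 per treatment, were sequenced from sorted aortic leukocytes. Per the submitters' processing notes, the authors used Cell Ranger 2.1.1, Seurat and the build mm9. The deposited counts are whole-number UMIs per gene and cluster, totalled over cells, per their values. The deposited table of cells gave library, cluster and cell type name. The sources used here do not give the cell filters, the clustering settings or how doublets were treated, and no doublet caller was run. A deposited table scaled by upper quartile was not used.

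CPM was computed here as counts over the total of the cluster, and class means weighted clusters equally. Genes with at least 20 counts entered the comparisons. A class or cluster at 0 was set to 3 counts, which gives a bound. Intervals are 95% Poisson intervals, and for ratios intervals from the counting variance. With 1 library per treatment and clusters made from the same counts, no test was made. The genes, classes and lists were chosen with earlier results of these data known. Named were all listed genes, with full values for the 6 with the largest ratios among those with at least 200 counts, and from each of 2 further lists the 5 largest and 5 smallest ratios, with Ifnar1, Ifnar2, Ifnb1 and Ifng always. One further gene of this rule is not reported here. Values named for single clusters were chosen after they were seen.

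Promoters are from RefSeq on GRCm38.p6, another build than that of the notes, and the count table holds no coordinates. Calculations used Python 3.11.15 with pandas 2.3.3, numpy 2.4.6 and scipy 1.17.1, and plots matplotlib 3.10.9. On simulated counts of 31053 genes for the myeloid and lymphoid comparison, with 50 genes changed at each size, the median recovered fold was 2.41 for a true 2.5, 3.83 for 4, 7.77 for 8 and 0.243 for 0.25. In the simulation all clusters shared a single profile with counting error only. The changed genes had many counts and the same change in every myeloid cluster. Differences between clusters of a class and genes with few counts were thus not covered. The alternatives tried were other scalings, count minimums, ratio lines, pooling rules and sets of clusters.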

Additional observations from a re-analysis of the deposited data

How the results depend on the processing

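The number of genes more than 2-fold higher in myeloid clusters stayed between 19 and 24 in all settings tried but 3: it was 38 in UMIs per cell, 29 at a 1.5-fold line and 13 at a 4-fold line. Of all genes 12.8% to 22.1% were more than 2-fold higher in the former settings. In UMIs per cell 59.9% were, and 9.16% of all genes passed the 4-fold line. The share of all genes at the 1.5-fold line was not computed. The number lower was 0 by upper quartile scaling, by median-of-ratios scaling, in UMIs per cell, without clusters 3, 11 and 16, with cluster 6 as lymphoid and at a 4-fold line, and 2 at a 1.5-fold line. Leaving out 1 cluster at a time gave 20 to 23 higher, 0 to 1 lower, a median log2 ratio of 0.98 to 1.57 and 3 to 6 genes whose classes did not overlap. The median was 2.51 in UMIs per cell, 1.14 with counts summed over clusters, 1.16 without clusters 2, 5, 14 and 16, 0.98 without cluster 18 and 1.24 without cluster 7. The number whose classes did not overlap was 8 in UMIs per cell and 6 without cluster 18. Every myeloid cluster stood above every lymphoid one for 3.9% and 2% of all genes in these settings. With only B cell clusters as lymphoid, chosen after seeing the data, the median was 0.91 and 6 did not overlap, and with only T cell clusters 6 did not overlap. The share of all genes without overlap was not computed for either set. Fewer lymphoid clusters make a gap easier for any gene, so these numbers cannot be read as a result about the list. Over B cell clusters Ifit3, Oasl1, Ifi27l2a and Trim30a fell under the 2-fold line and Usp18 rose over it, and over T cell clusters Ifi44 fell under it and Ifi35 rose over it. On the lower side, Gbp7 was 1.67-fold lower in myeloid than in B cell clusters, and Ly6a 2.71-fold lower. Against T cell clusters Gbp7 was 2.15-fold lower and Ly6a 1.08-fold lower. The log2 ratio of Ifng turned to 0.36 without cluster 3, also chosen after seeing the data.

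UMIs per cell moved the median log2 ratio of all genes from -0.26 to 1.17, with 59.9% of them higher and 3.14% lower. All 5 genes of the list below 0 in CPM (Gbp7, Ly6a, Sp100, Ifi203 and Slfn8) lay above 0 on that scale, Gbp7 at 0.25, but relative to the median of all genes Gbp7 was at -0.79 in CPM and -0.93 in UMIs per cell. The median log2 ratio of all genes was -0.13 by upper quartile scaling (16% higher, 15.3% lower) and -0.10 by median-of-ratios scaling (16.6% and 15.3%). Genes higher within a class numbered, by upper quartile scaling, 1 in cluster 0, 9 in cluster 10, 0 in cluster 15, 11 in cluster 1, 6 in cluster 2, 7 in cluster 4, 1 in cluster 5, 0 in cluster 9, 1 in cluster 14 and 0 in cluster 16. The shares of all genes, in that order, were 16.3%, 4.27%, 3.22%, 5.71%, 10.2%, 10.7%, 10.4%, 6.73%, 11.3% and 9.69%. By median-of-ratios scaling the numbers were 2 in cluster 10, 9 in cluster 1, 6 in cluster 2, 5 in cluster 4, 1 in cluster 5, 0 in cluster 9 and 1 in cluster 14. The shares were 3.63%, 5.1%, 9.57%, 8.52%, 11.8%, 7.22% and 13.9%. On totals without ribosomal protein and mitochondrial genes the numbers were 9 in cluster 1, 4 in cluster 2, 4 in cluster 4, 1 in cluster 5 and 0 in cluster 9. The shares were 4.78%, 8.64%, 6.03%, 12.6% and 9.13%. The cause of these moves was not tested. No paired analysis was possible because the counts pool both libraries and the result comes from no test. Depth limits clusters 16 and 18, where 3 counts are 14.1 and 5.53 CPM.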
